A study of Rattus norvegicus with 36 samples.

Results

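The genes described here encode the nuclear subunits of oxidative phosphorylation, in rats that had inhaled crystalline silica and in rats that had inhaled air. Members were the probes whose gene symbol began with Nduf a, b, c, s or v, with Uqcr, with Cox 4 to 8 or with Atp5, together with Sdha to Sdhd, Cyc1 and Cycs. They also had to have a detection p-value under 0.05, a signal above that of negative-control beads, on at least 6 of the 12 arrays of a tissue. By name 69 probes of 68 symbols matched, of 21792 probes and 21567 symbols on the array, and 66 probes of 65 symbols were tested in at least 1 tissue. Among the 69 probes, 30 belonged to complex I, 4 to complex II, 5 to complex III, 13 to complex IV, 12 to complex V and 1 to cytochrome c. The complex IV count includes Cox6c1, listed now as Cox6c-ps1, the symbol of a pseudogene. The other 4 of the 69 probes matched by prefix only and encode no subunit. These 4 were Ndufaf1, an assembly factor of complex I, Cox4nb, a gene next to Cox4i1 whose product belongs to a membrane protein insertion complex of the endoplasmic reticulum, and Atp5s and Atp5sl, which are related to a coupling factor of ATP synthase.

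Oxidative phosphorylation takes place in the inner mitochondrial membrane. Complex I oxidises NADH and complex II oxidises succinate, both pass electrons through ubiquinone to complex III, cytochrome c carries them on to complex IV, which reduces oxygen, and complex V (ATP synthase) makes ATP from the proton gradient. Alveolar macrophages, the main cells of a lavage of healthy lung and the cells that take up inhaled silica, depend on this pathway more than most inflammatory macrophages and neutrophils do, which rely largely on glycolysis. A few subunits of complex IV have a second isoform that is made chiefly in heart and skeletal muscle.

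Illumina BeadChips for the rat, arrays whose oligonucleotide probes sit on beads, read the RNA of lung tissue, of cells from bronchoalveolar lavage fluid (BALF cells) and of blood depleted of globin RNA. The silica group held 6 male rats of the strain labelled Fisher (CDF) 344, with a labelled age of approximately 3 months, exposed on 5 days, 6 h each, to a silica aerosol of 15 mg/m3. The air group held 6 rats of the same strain, sex and labelled age that breathed air, at a silica dose of 0. Tissues were taken 44 weeks after the exposure, and the labels give the same 12 rats for the 3 tissues, 36 arrays in all. The animals carried no transgene by the labels, and the tissues are mixtures of cells.

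The arrays of a tissue and group correlated at 0.9906 or more for lung, 0.994 for BALF cells and 0.9807 for blood, and their number, 6 per group, limits the precision. Fewer probes were detected on the blood arrays, 7244 to 8861 per array, than on the BALF arrays (9229 to 9773) or the lung arrays (10974 to 11607). One lung array stood apart. The summed intensity over 12 heart and striated muscle marker probes was 2135.8 to 6811.2 on the silica arrays, against 2112.7 to 2929.6 on 5 air arrays and 17848 on that of air replicate 6, and results that rest on this array are given with and without it. Of that marker list Myh7, Myl3 and Myh4 were detected on no lung array. Values below are log2 intensities after quantile normalization within a tissue, and a change is silica minus air on that scale.

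The tests covered 65 member probes for lung, 62 for BALF cells and 58 for blood. Atp5g3 (a c subunit of ATP synthase), Cox8c (the testis isoform of subunit 8) and Cox6c1 were tested in none of the tissues. Cox6a2 and Cox8h, the heart and muscle isoforms of subunits 6a and 8 of cytochrome c oxidase, were tested in the lung only: Cox8h was detected on 12 of 12 lung arrays and on 0 of 12 BALF arrays. Cox6b and Ndufs6 were likewise tested in the lung only. Some probes were barely above background: over the 12 arrays the dimmer of the Ndufb4 probes spanned 7.38 to 7.41 in BALF cells, and Cox6b spanned 7.44 to 7.47 in the lung. A change near 0 says little about such genes.

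Promoter sequence was not used in the choice by name, and some motifs stood in a larger share of the subunit promoters than of all promoters. RefSeq promoters of assembly GRCr8 (250 bases before to 50 after the gene start) were found for 56 of the 64 subunit genes, tested or not. Cox6c1 was counted among the 64. The centre of the palindrome of nuclear respiratory factor 1 (NRF1), a regulator of mitochondrial genes, was searched as CGCATGCG and stood in 8 of the 56 promoters (14.3%), against 497 of all 27457 promoters (1.81%). With any base at the fourth place, CGCNTGCG, which includes the first form, it stood in 22 (39.3%), against 8.23% of all promoters. The YY1 motif AAGATGGC stood in 10 (17.9%, against 3.44% of all), the ETS motif CCGGAAGT in 7 (12.5%, against 4.01%) and the CCAAT motif CCAATCA in 4 (7.14%, against 7.31%), both strands being searched for each. None of the 5 motifs stood in 21 of the 56 promoters. These are matches of letters, not measured sites.

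Shown here are promoters of genes on both sides of the BALF results below: Uqcrc1, Atp5o and Ndufa11 were higher in silica rats, and Atp5g2 was lower. Capitals mark matches to CGCNTGCG, which overlap each other in Ndufa11, and to the YY1 motif, which matched in Uqcrc1 and Atp5o. All 4 hold the full NRF1 form. In order they lie at chr8:118467973-118468272 (plus strand), chr11:44657434-44657733 (minus strand), chr9:1637364-1637663 (plus strand) and chr7:135678169-135678468 (minus strand). The promoter of Ndufa1, the gene with the largest fall, held none of the 5 motifs in this window. The promoters named were picked and do not stand for the rest. CGCNTGCG also stood in those of Cox7a2l, Ndufa5, Ndufa6, Ndufv3l and Sdhd, all lower. It also stood in those of Atp5d, Atp5l, Cycs and Ndufab1, all higher. Besides Ndufa1, none of the 5 motifs stood in Ndufb3, lower, or in Uqcrfs1, Atp5b, Ndufb5, Ndufs3 and Ndufv2, all higher. Whether a motif went with a direction was not tested.
Uqcrc1: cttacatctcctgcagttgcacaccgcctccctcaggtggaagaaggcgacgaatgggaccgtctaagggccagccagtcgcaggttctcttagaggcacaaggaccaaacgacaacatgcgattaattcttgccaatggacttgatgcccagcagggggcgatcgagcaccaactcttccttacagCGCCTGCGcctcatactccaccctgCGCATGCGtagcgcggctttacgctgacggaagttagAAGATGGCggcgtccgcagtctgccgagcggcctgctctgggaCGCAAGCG
Atp5o: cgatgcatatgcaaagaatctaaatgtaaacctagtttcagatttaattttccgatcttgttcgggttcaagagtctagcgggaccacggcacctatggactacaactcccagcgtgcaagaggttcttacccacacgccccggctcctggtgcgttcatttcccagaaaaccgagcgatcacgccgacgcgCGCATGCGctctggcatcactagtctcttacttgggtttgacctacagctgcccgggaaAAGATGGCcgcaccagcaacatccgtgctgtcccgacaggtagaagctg
Ndufa11: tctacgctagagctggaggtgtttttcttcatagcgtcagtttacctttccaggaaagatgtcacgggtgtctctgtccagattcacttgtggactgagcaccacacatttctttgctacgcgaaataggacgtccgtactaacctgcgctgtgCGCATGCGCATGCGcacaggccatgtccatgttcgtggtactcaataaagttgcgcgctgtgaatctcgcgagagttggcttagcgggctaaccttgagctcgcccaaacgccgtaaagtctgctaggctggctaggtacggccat
Atp5g2: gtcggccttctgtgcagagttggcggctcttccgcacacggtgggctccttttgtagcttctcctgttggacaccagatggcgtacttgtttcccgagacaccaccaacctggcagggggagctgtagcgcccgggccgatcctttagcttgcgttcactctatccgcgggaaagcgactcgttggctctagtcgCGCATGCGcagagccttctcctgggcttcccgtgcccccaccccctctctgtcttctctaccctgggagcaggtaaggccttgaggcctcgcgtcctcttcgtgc

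In BALF cells, 23 of 62 members were higher in silica rats and 8 were lower (limma, Benjamini-Hochberg adjusted p under 0.05 over all 9564 tested probes), so that 50% of the members were called. Among all tested probes 15.2% were called higher and 18.1% lower. The members called higher thus made up 37.1%, more than the share over all probes, and those called lower 12.9%, less than it. The rises were of 4.50% to 35.0% and the falls of -6.02% to -28.6%, and the median change of the members was 0.045, against -0.0057 over all tested probes. All 6 silica rats lay above every air rat for 10 members (16.1%, against 9.04% of all probes) and below every air rat for 5 (8.06%, against 9.67%). Every one of the 31 called members had all 6 silica values on one side of the air mean. So did several members that were not called, among them Ndufs7, Sdhb and Cox6a1. This trait therefore does not set the called members apart, and its share over all probes was not computed. In a lavage as a whole, fewer cells of a type and less RNA per cell cannot be told apart.

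These counts depend on how the arrays were scaled. With a shift of each array to a common median in place of quantile normalization, none of the 62 members was called while 30 of the 31 kept their direction, all but Ndufb9, and 275 and 207 of all probes remained called higher and lower. With arrays shifted by the median of only those probes that all 12 arrays detected, 5 members were higher and 4 lower, and these 9 were all among the 31: Cyc1, Uqcrfs1, Uqcrc1, Atp5h and Cox4nb were higher, and Ndufa1, Ndufv3l, Cox7a2l and Atp5g2 lower. The median change of the members was -0.0092 with the median shift, against -0.015 over all tested probes. With the shift to detected probes it was 0.036, against 0.030. Without silica replicate 3 the count of members higher was 15. Of the 31 calls, 21 were made in each of the 12 fits that left out 1 array. The other 10 were lost in some: Ndufs8, Ndufb8, Ndufab1, Ndufa13, Ndufv2, Ndufa6, Ndufb3, Cox5b, Atp5b and Cycs, with a highest adjusted p of 0.0527 for Ndufs8 to 0.0941 for Ndufa13. The call of Ndufs8 was lost without silica replicate 3 or 4 or air replicate 6, and that of Ndufb8 without silica replicate 2, 3, 5 or 6 or air replicate 6. Cox5b lost it without silica replicate 3, 4, 5 or 6 or air replicate 2 or 5, and Cycs without silica replicate 1, 2 or 3 or air replicate 3, 5 or 6.

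**Figure D1:**
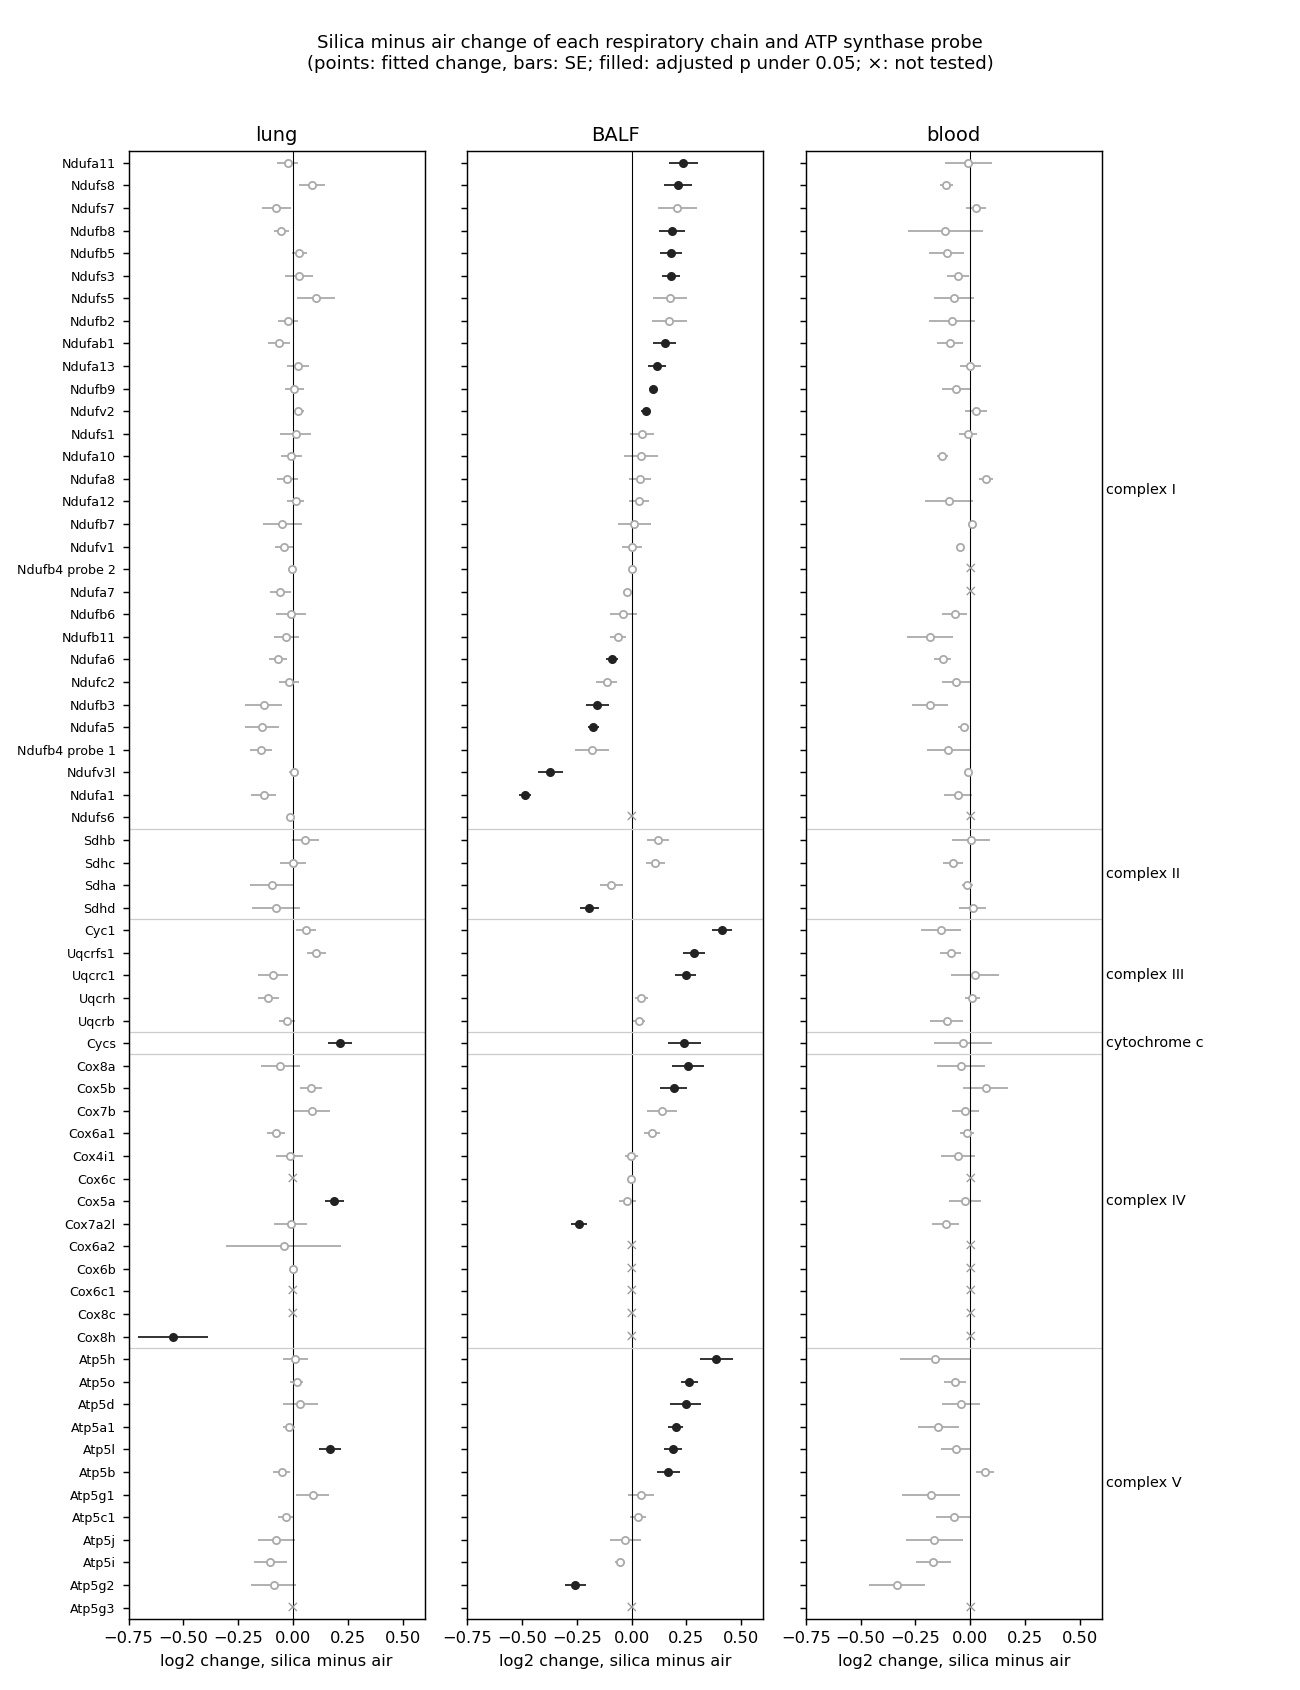
Fitted log2 change, silica minus air, of each subunit probe and of cytochrome c in lung, BALF cells and blood, grouped by complex and ordered within a complex by the BALF change. Bars are standard errors, filled points have an adjusted p under 0.05 and crosses mark probes that were not tested; the filled points crowd in the BALF panel, where 21 subunits and carriers were higher and 8 lower after quantile normalization, and none is filled in blood.

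Complex I, the largest complex of the chain, had calls in both directions in BALF cells. Of its 29 tested probes 9 were higher, against 15.2% of all probes, and 5 lower, the lower calls at about the share over all probes (18.1%). The median change of the 29 was 0.039, which was -0.017 with the median shift and 0.028 with the shift to detected probes. With these shifts it lay close to the median over all tested probes (-0.015 and 0.030). Of 6 core subunits of the NADH-oxidising and quinone-binding modules, 3 were higher (Ndufs8, Ndufs3 and Ndufv2) and none was lower. Of 23 probes of accessory subunits 6 were higher and 5 lower. This grouping was made after the values were seen.

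The largest fall of any member was that of Ndufa1, a small accessory subunit of the membrane arm whose gene lies on the X chromosome. Its lowest, median and highest values were 11.75, 11.81 and 11.94 in silica rats, against 12.26, 12.30 and 12.36 in air rats. The groups lay apart by a gap wider than the spread of either. The change was -0.49 ± 0.028 (SE, n = 6 rats per group) or -28.6% (adjusted p = 7.94e-07 in limma), and it was -0.51 with the shift to detected probes (adjusted p = 3.8e-05).

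Ndufv3l, listed now as Ndufv3, an accessory subunit of the NADH-oxidising module, was at 8.23, 8.24 and 8.50 in silica rats, against 8.53, 8.71 and 8.79 in air rats. The highest silica value came close to the lowest air value without reaching it. The change was -0.37 ± 0.058 (limma adjusted p = 0.000555). Ndufa5, an accessory subunit beside the quinone-binding module, was at 11.87, 11.93 and 11.98 in silica rats, against 12.02, 12.11 and 12.15 in air rats, again with no overlap. It fell by 0.17 ± 0.023 on the log2 scale (limma adjusted p = 0.000202), a small change with a small error. The other falls, of Ndufb3 and Ndufa6, were of -0.16 and -0.090, with overlapping groups.

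The rises in complex I were smaller than the 2 largest falls and most of the groups overlapped. Ndufa11, an accessory subunit of the membrane arm, was at 12.02, 12.12 and 12.15 in silica rats, against 11.62, 11.91 and 12.03 in air rats. The ranges crossed only at the lowest silica and highest air value. The change was 0.24 ± 0.065 (limma adjusted p = 0.0162). Ndufs8, an iron-sulfur core subunit, was at 10.80, 10.98 and 11.04 in silica rats, against 10.54, 10.78 and 10.95 in air rats, where silica replicate 1 held the low value and lay among the air rats. Its change was 0.21 ± 0.064 (limma adjusted p = 0.0253), and Ndufb8, of the membrane arm, rose by 0.18 ± 0.059 (adjusted p = 0.0323).

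The smallest standard errors among the rises were those of Ndufv2 (0.020) and Ndufb9 (0.020). Ndufb9, of the membrane arm, was the one complex I subunit whose silica rats all lay above the air rats, at 13.45, 13.51 and 13.55 in silica rats, against 13.34, 13.42 and 13.44 in air rats. Its change of 0.098 (limma adjusted p = 0.00306) turned below 0 with the median shift of all probes. The brighter Ndufb4 probe had a change of -0.18 ± 0.077 (adjusted p = 0.0926) and the dimmer 0.0013, so that the brighter one alone carried a reading.

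Complex II, which is shared with the citric acid cycle, had 1 call, a fall, among its 4 subunits. With 18.1% of all BALF probes called lower, 1 of 4 does not stand out. Sdhd, a membrane anchor, was at 11.72, 11.81 and 11.91 in silica rats, against 11.89, 12.00 and 12.10 in air rats. The groups met only at their edges. It fell by 0.19 ± 0.045 on the log2 scale (limma adjusted p = 0.00621). The other anchor, Sdhc, and the iron-sulfur subunit Sdhb had changes of 0.11 ± 0.042 and 0.12 ± 0.050, and the flavoprotein Sdha one of -0.093 ± 0.052, none of them called (adjusted p = 0.066, 0.0886 and 0.201). The median of the 4 was 0.0078, and it was -0.076 and -0.031 under the other scalings.

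In complex III, 3 of the 5 probes were higher, against 15.2% of all BALF probes, none was lower and the median change was 0.25. The median stayed above 0 under the other scalings, at 0.18 with the median shift and 0.22 with the shift to detected probes. Cyc1, cytochrome c1, which hands electrons to cytochrome c, was at 10.53, 10.71 and 10.74 in silica rats, against 10.11, 10.28 and 10.38 in air rats. Every silica rat lay above every air rat, by a gap narrower than the spread of either group. The change was 0.41 ± 0.047, a 1.33-fold rise (limma adjusted p = 6.53e-05), the largest of any subunit.

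Uqcrfs1, the Rieske iron-sulfur protein, was at 12.86, 12.96 and 13.02 in silica rats, against 12.54, 12.65 and 12.82 in air rats. Uqcrc1, a core protein, was at 11.12, 11.21 and 11.34 in silica rats, against 10.85, 10.99 and 11.08 in air rats. In both genes each silica rat was above each air rat. The changes were 0.28 ± 0.049 for Uqcrfs1 (limma adjusted p = 0.00107) and 0.25 ± 0.048 for Uqcrc1 (adjusted p = 0.0021), and all 3 genes stayed called with the shift to detected probes. Uqcrh, the hinge protein, and Uqcrb, which binds ubiquinone, were not called, with changes of 0.043 ± 0.029 and 0.034 ± 0.028. All 5 probes of the complex had a change above 0, against 4091 of all 9564 tested probes, and with either shift 3 of the 5 did.

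Cytochrome c itself, Cycs, was at 12.59, 12.77 and 12.99 in silica rats, against 12.33, 12.57 and 12.71 in air rats. The ranges overlapped in their inner parts. It rose by 0.24 ± 0.076 (limma adjusted p = 0.0303).

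**Figure D2:**
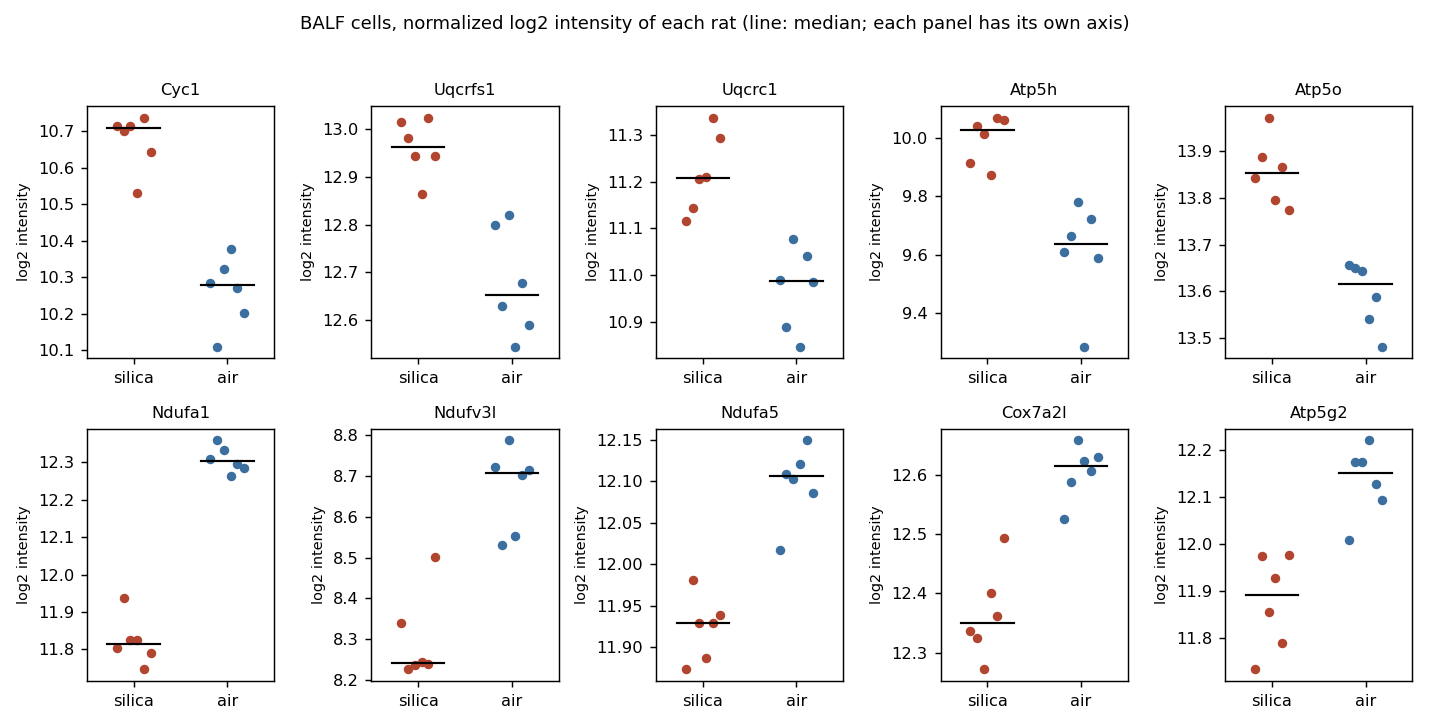
Normalized log2 intensity in BALF cells of 10 subunit genes whose groups did not overlap, 1 point per rat, silica left of air, with the median as a line and an axis of its own for each gene. The upper row holds 5 genes whose 6 silica rats all lay above the 6 air rats, and the lower row the 5 subunit genes whose 6 silica rats all lay below them.

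Complex IV had 2 rises and 1 fall among 8 tested probes. Over all BALF probes 15.2% were called higher and 18.1% lower, so counts this small do not stand out. Its median change was 0.046, which was -0.014 with the median shift and 0.031 with the shift to detected probes. With these shifts the median over all tested probes was nearly the same (-0.015 and 0.030). Cox8a, the ubiquitous isoform of subunit 8, was at 12.44, 12.56 and 12.78 in silica rats, against 12.10, 12.36 and 12.44 in air rats. The lowest silica rat equalled the highest air rat. It rose by 0.26 ± 0.073 (limma adjusted p = 0.0175), and Cox5b, a subunit on the matrix side, rose by 0.19 ± 0.061 (adjusted p = 0.0313). The other subunits of the ubiquitous enzyme were not called, among them Cox4i1 at -0.00083 ± 0.028, Cox5a at -0.020 ± 0.039 and Cox6a1 at 0.093 ± 0.038.

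Cox7a2l, which is related to subunit 7a and joins complex IV to complex III in supercomplexes, moved the other way. It was at 12.27, 12.35 and 12.49 in silica rats, against 12.53, 12.62 and 12.66 in air rats. The groups did not overlap. It fell by 0.24 ± 0.035 on the log2 scale (limma adjusted p = 0.000318), and by 0.30 with the shift to detected probes (adjusted p = 0.00212).

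In complex V, 6 of 11 probes were higher and 1 was lower, against 15.2% and 18.1% of all BALF probes. The median change was 0.17, 0.051 with the median shift and 0.096 with the shift to detected probes. Of 5 probes for the catalytic head, its shaft and the subunit OSCP, 4 were higher (Atp5a1, Atp5b, Atp5d and Atp5o), and Atp5c1, the shaft, was at 0.028 ± 0.036. Of 6 probes for the membrane ring, the stalk and the small membrane subunits, 2 were higher (Atp5h and Atp5l) and 1 was lower (Atp5g2). Like that of complex I, this grouping was not set before the values were seen. OSCP joins the head to the stalk and could be counted with either, which would change both counts.

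Atp5h, the d subunit of the stalk, was at 9.87, 10.03 and 10.07 in silica rats, against 9.29, 9.64 and 9.78 in air rats. Atp5o, known as OSCP, which ties the head to the stalk, was at 13.77, 13.85 and 13.97 in silica rats, against 13.48, 13.62 and 13.66 in air rats. Neither gene had overlapping groups. The changes were 0.39 ± 0.074 for Atp5h (limma adjusted p = 0.00207) and 0.26 ± 0.039 for Atp5o (adjusted p = 0.000397). Atp5d, the delta subunit of the head, was at 11.99, 12.15 and 12.30 in silica rats, against 11.64, 11.93 and 12.03 in air rats, and rose by 0.25 ± 0.072 (adjusted p = 0.0208).

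Of the genes for the c subunit, 3 loci that encode the same mature ring protein, Atp5g2 alone was called. Atp5g2 was at 11.73, 11.89 and 11.98 in silica rats, against 12.01, 12.15 and 12.22 in air rats. Every silica rat was below every air rat. It fell by 0.26 ± 0.049 on the log2 scale (limma adjusted p = 0.0019). Atp5g1 had a change of 0.041 ± 0.059 (adjusted p = 0.645), and Atp5g3 was detected on none of the 12 arrays; the difference between the loci was not tested.

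Summed up by rat after quantile normalization, the one scaling for which this was computed, the groups did not overlap for complexes III and V in BALF cells and overlapped for the others. The median over complex III probes of each rat's difference from the air mean was 0.14 to 0.35 in silica rats, against -0.12 to 0.064 in air rats. For complex V it was 0.085 to 0.25 in silica rats, against -0.019 to 0.050 in air rats, and the fitted median of complex V was smaller under the other scalings, as given above. The ranges of complexes I, II and IV overlapped, with -0.0039 to 0.061 in silica rats against -0.12 to 0.081 in air rats for complex I.

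**Figure D3:**
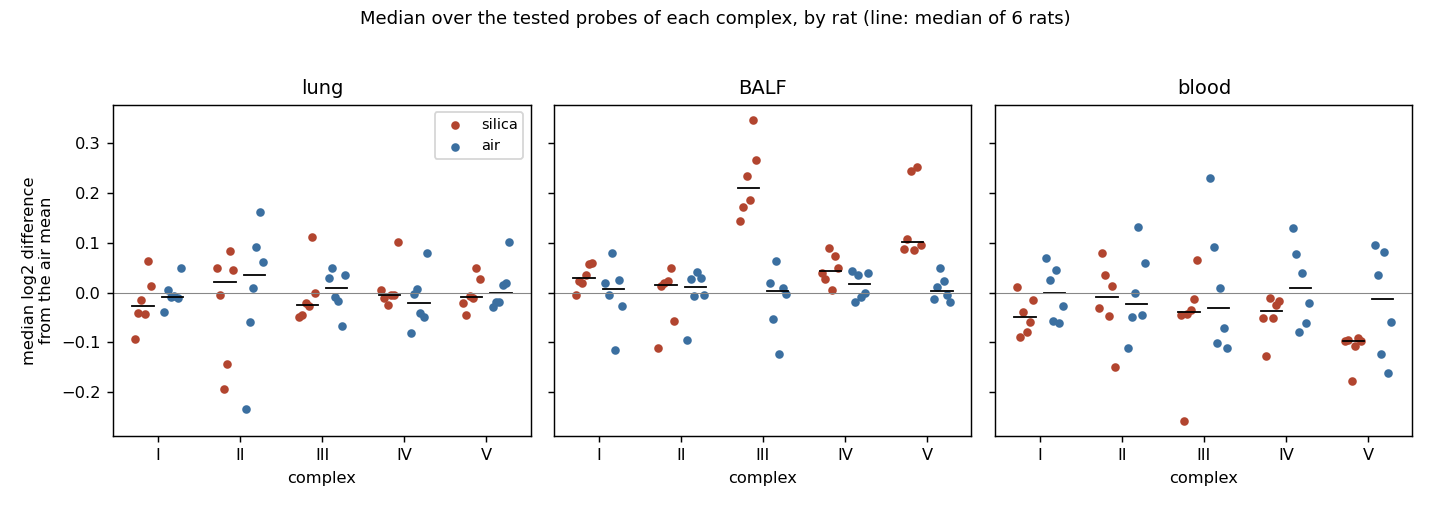
Median over the tested probes of each complex of the log2 difference from the air mean, 1 point per rat, silica left of air, with the median of 6 rats as a line, for the 3 tissues. After quantile normalization the silica rats stand, in BALF cells, above all air rats for complexes III and V, and in lung and blood the groups overlap for each complex.

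Of the members matched by prefix only, Cox4nb was at 8.99, 9.21 and 9.31 in silica rats, against 8.40, 8.80 and 8.91 in air rats, without overlap, a rise of 0.43 ± 0.082 in BALF cells (limma adjusted p = 0.00189). Its symbol names its place beside Cox4i1, which had the smallest change of any tested subunit probe there. Ndufaf1 rose by 0.086 ± 0.017 (adjusted p = 0.00264).

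Cell type markers moved with these results in BALF cells, where 15.2% of all probes were called higher and 18.1% lower. Of 15 tested monocyte and recruited macrophage markers 10 were higher and 2 lower, with a summed intensity of 66729 to 93131 in silica rats, against 56251 to 59994 in air rats; Adgre1 and Cd163 were detected on no array. Of 12 resident alveolar macrophage markers 1 was higher and 7 were lower, with sums of 11292 to 12975 in silica rats, against 17010 to 20010 in air rats; Chi3l3 was detected on no array. Of 9 neutrophil markers 6 were higher and none lower, with sums of 3860.6 to 4994.6 in silica rats, against 2589.8 to 2990.5 in air rats, and S100a9, Lcn2, Ngp, Fpr1 and Ltf were detected on no array. Of 14 T and NK cell markers 9 were higher and none lower, with sums of 2953.7 to 4101.2 in silica rats, against 2690.1 to 2821.8 in air rats; Cd5 and Ncr1 were detected on no array. Their part in the changes of the subunits was not tested. Erythroid markers, 7 tested and none called, varied more between rats of a group than between groups, at 2548 to 18166 in silica rats and 5071.1 to 46156 in air rats.

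The BALF counts of neighbouring pathways are read against the 15.2% and 18.1% of all probes called higher and lower, and those of assembly factors and of carriers lay near or below these shares. Of 23 tested genes of mitochondrial fatty acid oxidation none was higher and 9 were lower, with a median of -0.053. The largest falls were those of Decr1 (-0.47 ± 0.045), a reductase for unsaturated chains, Acat1 (-0.41 ± 0.073), the thiolase of ketone metabolism, and Eci2 (-0.36 ± 0.073), an enoyl-CoA isomerase. Of 17 glycolysis and lactate genes 9 were higher and 4 lower, with a median of 0.081, led by the lactate carriers Slc16a1 (0.76 ± 0.068) and Slc16a3 (0.59 ± 0.081) and by triosephosphate isomerase, Tpi1 (0.70 ± 0.051). Of 25 genes of the citric acid cycle and pyruvate dehydrogenase 7 were higher and 3 lower, with a median of 0.034. The pyruvate carrier Mpc1 rose by 0.55 ± 0.11 and Pdk1, a kinase that inhibits pyruvate dehydrogenase, by 0.22 ± 0.052, while glutamate dehydrogenase, Glud1, fell by 0.24 ± 0.056 on the log2 scale.

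Of 28 assembly factors of the respiratory complexes 3 were higher and 4 lower, with a median of -0.00051. Hccs, the lyase that attaches heme to cytochrome c and cytochrome c1, rose by 0.41 ± 0.083 (limma adjusted p = 0.00257), and Sdhaf2, which flavinates Sdha, fell by 0.36 ± 0.056 on the log2 scale (adjusted p = 0.000521). Of 19 regulators of mitochondrial biogenesis 4 were higher and none lower, with a median of 0.0098, namely Myc (0.40 ± 0.11), Hif1a (0.25 ± 0.069), Lrpprc, a regulator of mitochondrial mRNA (0.17 ± 0.061), and Gabpa, the ETS factor known as NRF2 (0.087 ± 0.028). Ppargc1a, Ppargc1b and Nrf1 were detected on no BALF array. Of 27 carriers, porins and uncouplers 5 were higher and 4 lower, with a median of 0.026, among them the porin Vdac1 at 0.27 ± 0.056 and the uncoupling protein Ucp3 at -0.60 ± 0.062. Of 33 genes of mitochondrial dynamics and quality control 10 were higher and 8 lower, with a median of 0.042. Bnip3, a mitophagy receptor, was at -0.59 ± 0.088, the mitochondrial chaperone Hspa9 at 0.54 ± 0.072 and the autophagy adaptor Sqstm1 at 0.42 ± 0.076.

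In the lung, 3 of 65 members were higher and 1 was lower, against 8.26% and 9.46% of all 11399 tested probes called higher and lower. These are 4.62% and 1.54% of the members, below the shares over all probes. The silica and air lungs did not overlap for 1 member, with silica below (4.35% of all probes lay so), and for none with silica above (4.83% of all). The median change of the members was -0.016, against -0.0043 over all probes. With the median shift it was -0.20, against -0.059 over all probes. With the shift to detected probes it was -0.080, against 0.062. Without air replicate 6 the lung counts were again 3 and 1. No member of complexes I, II or III was called, and 9 of the 65 members had an unadjusted p under 0.05, against 30.6% of all lung probes.

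The largest change in the lung was in the heart and muscle isoform of subunit 8, Cox8h, listed now as Cox8b. It was at 8.03, 8.13 and 8.46 in silica lungs, against 8.47, 8.59 and 9.48 in air lungs, where air replicate 6 held the high value. Every silica lung was below every air lung. The change was -0.55 ± 0.16 (limma adjusted p = 0.036), and without air replicate 6 it was -0.40 ± 0.085 (adjusted p = 0.0126). The call was lost, with adjusted p of 0.0517 to 0.0765, when silica replicate 1, 2, 3 or 5 or air replicate 2 or 5 was left out. With the median shift the change was -0.71 (adjusted p = 0.0117) and with the shift to detected probes -0.59 (adjusted p = 0.00269).

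The other heart and muscle isoform, Cox6a2 of subunit 6a, did not share this fall. It was at 7.52, 7.66 and 7.99 in silica lungs, against 7.44, 7.46 and 9.07 in air lungs, where the next air value below 9.07 was 7.60. Its change was -0.042 ± 0.26 (limma adjusted p = 0.936), and without air replicate 6 it was 0.22 ± 0.084 (adjusted p = 0.109). In the order of summed heart and striated muscle markers, the lungs with the 3 highest sums, air replicate 6, silica replicate 6 and silica replicate 4 (17848, 6811.2 and 4986.9), also held the 3 highest Cox6a2 values. For Cox8h the silica lungs with the highest sums, replicates 6 and 4, stood at 8.46 and 8.36, still below the air lungs with sums of 2112.7 to 2162.1, which were at 8.47 to 8.79. Within the silica group these were the highest Cox8h values, and air replicate 6 held the highest of the air group. None of the 12 tested heart and striated muscle markers was called, and their part in the values of both isoforms was not tested. Ubiquitous Cox8a and Cox6a1 were not called in the lung, with changes of -0.058 ± 0.089 and -0.077 ± 0.040.

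**Figure D4:**
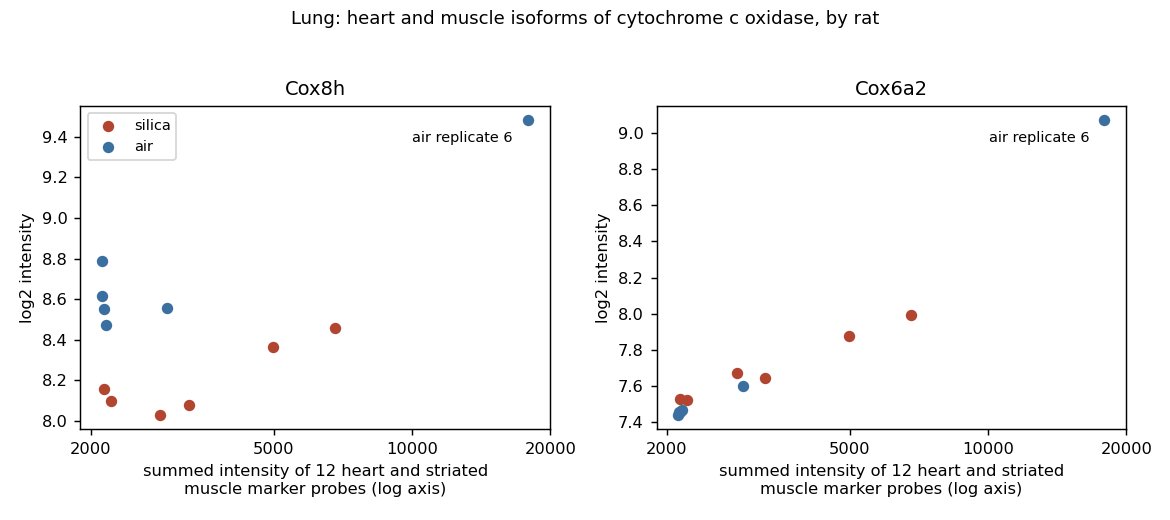
Log2 intensity of Cox8h and Cox6a2 in each lung against the summed intensity of 12 heart and striated muscle marker probes, on a log axis, with silica lungs in red and air lungs in blue. Air replicate 6, at a sum of 17848, stands apart in both panels. The silica lungs lie below the air lungs for Cox8h. For both isoforms the silica lungs with the highest sums hold the highest silica values.

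Cox8h moved in the lung beside other cell type markers, where 8.26% of all probes were called higher and 9.46% lower. Of 12 endothelial markers 9 were lower and none was higher, with sums of 41978 to 50378 in silica lungs, against 56113 to 63920 in air lungs; Robo4 was detected on no array. Of 8 smooth muscle markers 3 were lower and none was higher, with sums of 4325.3 to 5623.4 in silica lungs, against 5165.5 to 6878.2 in air lungs. Of 4 brown fat markers, cells that also make this isoform, 1 was higher and 1 lower, with a median change of 0.0013, and Ucp1 was detected on no array. Their sums were 1768.1 to 3541.4 in silica lungs, against 981.85 to 1311.9 in air lungs. In BALF cells the tested markers of this list summed to 6573.9 to 11742 in silica rats and 5631.7 to 8442.8 in air rats. Adipoq and Plin1 were detected on no BALF array, and which cells such a sum reflects was not tested in either tissue. Of 18 monocyte and recruited macrophage markers 11 were higher and 1 lower, with sums of 27463 to 34786 in silica lungs, against 18019 to 21897 in air lungs. Also higher were 6 of 13 alveolar type 2 markers and 3 of 9 B and plasma cell markers, with none lower in either list. Among 12 resident alveolar macrophage markers 3 were higher and 4 lower, and among 11 neutrophil markers 3 were higher and none lower. Pax5, Vpreb3, Irf4, Chi3l3, S100a9, Fpr1 and Ltf of these lists were detected on no lung array. The part of these cell types in the lung results was not tested.

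The rises in the lung were those of cytochrome c, Cox5a and Atp5l. Cycs was at 11.99, 12.15 and 12.29 in silica lungs, against 11.82, 11.91 and 12.08 in air lungs. Cox5a, a matrix-side subunit of complex IV, was at 11.99, 12.10 and 12.25 in silica lungs, against 11.83, 11.94 and 12.01 in air lungs. In both genes the groups overlapped at the lowest silica and the highest air values. The changes were 0.22 ± 0.055 for Cycs (limma adjusted p = 0.0205) and 0.19 ± 0.044 for Cox5a (adjusted p = 0.0137). Atp5l, the g subunit of ATP synthase, rose by 0.17 ± 0.049 (adjusted p = 0.0347), with 5 of 6 silica lungs above the air mean. Its call was kept in 3 of the 12 fits that left out 1 array, those without silica replicate 4, air replicate 1 or air replicate 6, and the highest adjusted p of the others was 0.0759. Cox5a and Cycs were called in all 12. With the median shift of all probes Cox5a and Atp5l turned to -0.0071 and -0.033, Cycs was at 0.016 and none of the 3 was called; with the shift to detected probes their changes were above 0 and none was called. Cycs and Atp5l were the members called higher in both BALF cells and lung.

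The lung counts of the other pathways are read against the 8.26% and 9.46% of all probes called higher and lower. Of 22 biogenesis regulators 1 was higher, Myc (0.57 ± 0.055), and 1 lower, Ppargc1a (-0.030 ± 0.0093). The change of Ppargc1a was small, with a standard error near that of the dim lung probe of Ndufs6 (0.0083). Ppargc1a was detected on no BALF or blood array, so this call says little. Of 29 assembly factors 1 was higher, Hccs (0.24 ± 0.062), and 2 lower, Iscu (-0.18 ± 0.047), the scaffold of iron-sulfur clusters, and Surf1 (-0.11 ± 0.028), which helps build complex IV. Of 27 citric acid cycle and pyruvate dehydrogenase genes 4 were higher and 2 lower, of 23 fatty acid oxidation genes 1 higher, of 26 carriers 2 higher, and of 34 dynamics genes 6 higher and 2 lower. Of 21 glycolysis and lactate genes 7 were higher and none lower, led by Hk3 (0.80 ± 0.12), Slc16a3 (0.72 ± 0.19) and Gapdh (0.46 ± 0.10).

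Whether a member changed differently in BALF cells than in the lung was tested on each rat's BALF minus lung difference, over 9131 probes tested in both tissues. The difference was above 0 for 11 of 61 members and below 0 for 4 (limma adjusted p under 0.05), against 10.3% and 12.2% of all probes. These are 18% and 6.56% of the members. By complex the calls above 0 were 1 in complex I, 3 in complex III, 2 in complex IV and 4 in complex V, and Cox4nb was the other. With the median shift no member was called, while all 15 kept their direction, and with the shift to detected probes 4 were above and 1 below; without air replicate 2 of each tissue 7 were above 0.

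Cyc1 differed by 0.35 ± 0.044 (BALF 0.41, lung 0.058, adjusted p = 0.000205), Atp5h by 0.37 ± 0.089 (BALF 0.39, lung 0.011, adjusted p = 0.0102) and Uqcrc1 by 0.34 ± 0.081 (BALF 0.25, lung -0.092, adjusted p = 0.0105). In the other direction, Ndufv3l differed by -0.37 ± 0.060 (BALF -0.37, lung 0.0040, adjusted p = 0.000974), Ndufa1 by -0.35 ± 0.074 (BALF -0.49, lung -0.13, adjusted p = 0.00515) and Cox7a2l by -0.23 ± 0.059 (BALF -0.24, lung -0.010, adjusted p = 0.0154). Cox5a was the member called in the lung and not in BALF cells for which the difference was called, at -0.21 ± 0.043 (BALF -0.020, lung 0.19, adjusted p = 0.00459). For cytochrome c and Atp5l, higher in both tissues, the differences were 0.026 ± 0.10 and 0.021 ± 0.059 and were not called. Cox8h could not be compared, since it was not detected in BALF cells.

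**Figure D5:**
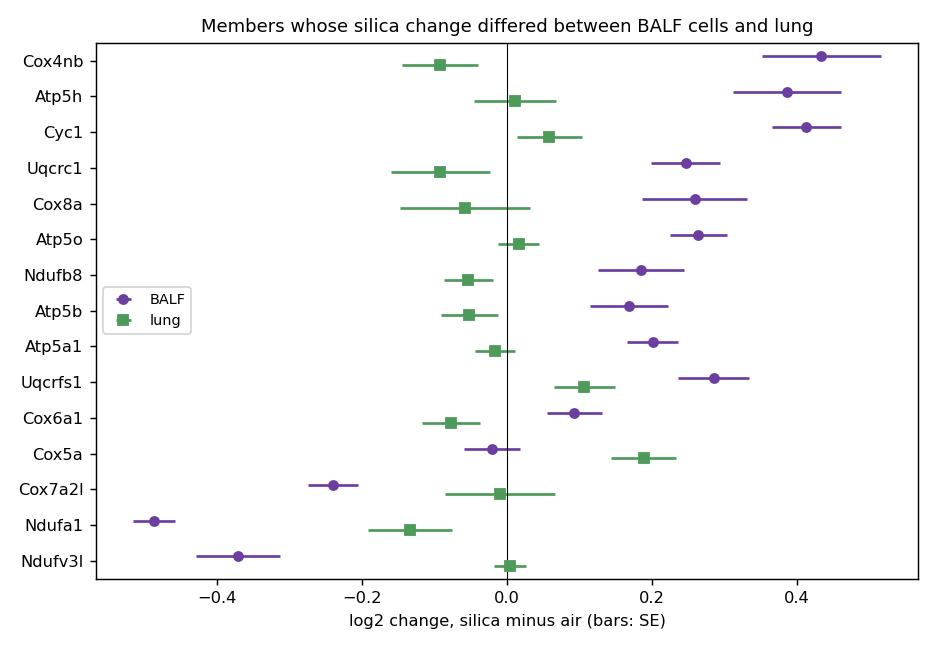
Log2 change, silica minus air, with its standard error in BALF cells (circles) and lung (squares) for the 15 members whose changes differed between the tissues. For the upper 11 the BALF change lies to the right of the lung change, which is near 0 for most, and for the lower 4 it lies to the left.

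In blood no member was called, and the share of all 8044 tested probes called was 0% in either direction. With limma 1072 probes (13.3%) and 7 of 58 members had an unadjusted p under 0.05, and the smallest adjusted p over all probes was 0.0786. The members of smallest p were Ndufa10, Ndufs8 and Ndufa6, all of complex I. Ndufa10, an accessory subunit of the membrane arm, was at 8.12, 8.16 and 8.21 in silica rats, against 8.22, 8.28 and 8.34 in air rats, without overlap, and had a change of -0.13 ± 0.023 (adjusted p = 0.18). Silica rats all lay below air rats for this member alone (0.622% of all probes lay so) and above them for none (0.609% of all). Ndufs8 and Ndufa6 had changes of -0.11 ± 0.030 and -0.13 ± 0.040.

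The sign of the members as a group in blood followed the scaling. After quantile normalization 45 of 58 were below 0 with a median of -0.061. Of all 8044 tested probes 4532 were below 0, with a median of -0.0032. With the median shift of all probes the median of the members was 0.14, against 0.032 over all probes. With the shift to detected probes it was 0.075, against -0.035. The complex V median was -0.15 after quantile normalization, and 0.16 and 0.095 with the 2 shifts. Atp5g2 was at -0.33 ± 0.13 after quantile normalization (adjusted p = 0.295). Cyc1, Ndufa1 and Cox7a2l, each called in BALF cells, had blood changes of -0.13 ± 0.090, -0.057 ± 0.065 and -0.11 ± 0.061.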

How the data were processed

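Per the file headers, the tables deposited by the authors hold a mean bead intensity per probe and array and a detection p-value. The authors also deposited log2 values, whose normalization is not stated in the labels or headers, and which were tried as an alternative; BeadStudio, lumi and limma are named per the submitters' processing notes. Labels give separate rats within a group.

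Within each tissue, intensities were background-corrected and quantile-normalized with neqc (limma 3.58.1, R 4.3.3, offset of 16), which inferred the negative controls from the detection p-values. Probes passing detection p 0.05 on 6 of 12 arrays or more entered lmFit and eBayes, two-sided, with Benjamini-Hochberg adjustment over all of them and a threshold of 0.05. The BALF to lung test used each rat's difference. The procedure was tested on simulated data.

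RefSeq GRCr8 names gave 9918 probes a current symbol and 4817 an update from a synonym, 6940 kept the symbol of the file and 117 had none. One blood array of the silica group carries different numbers in title and description, and the description was used to find its data.

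Members, lists and tests were chosen with earlier results of these data known. Named were, per tissue and complex, up to 3 largest called rises and 3 falls, the isoform pairs, genes with disagreeing probes, Cycs, Cyc1 and the Sdh genes, up to 4 called BALF to lung differences each way, the 3 of smallest p in blood and up to 3 called genes of each other list. The remaining names were added after values were seen.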

Additional observations from a re-analysis of the deposited data

Results flagged for a closer look

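Of 136 groups of 6 values of the named members, 4 held a value far from the other 5, where chance gives about 1 group in 20. In the lung, air replicate 6 was at 9.48 for Cox8h, against a next value of 8.79, and at 9.07 for Cox6a2, against a next value of 7.60. In BALF cells, silica replicate 1 was at 10.80 for Ndufs8, below a next value of 10.97, and silica replicate 3 was at 13.17 for Cox4i1, above a next value of 13.08.

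The silica change differed between BALF cells and lung, in the test of the difference itself, for the members named here. It was higher in BALF cells for Cox4nb by 0.53, Atp5h by 0.37, Cyc1 by 0.35 and Uqcrc1 by 0.34 log2 units. The BALF minus lung difference was -0.37 for Ndufv3l, -0.35 for Ndufa1, -0.23 for Cox7a2l and -0.21 for Cox5a. The 8 stayed called without any 1 rat, with highest adjusted p of 0.00559, 0.0256, 0.000762 and 0.0255 for the first 4 and 0.00303, 0.0131, 0.0354 and 0.0116 for the others. With the median shift of all probes none of them was called, while each kept its direction.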

How the results depend on the processing

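The choice of scaling changed the counts most. With the median shift, members called higher and lower were 0 and 1 in the lung, 0 and 0 in BALF cells, and 0 above and 0 below for the BALF minus lung difference, against 3 and 1, 23 and 8, and 11 and 4 after quantile normalization; in the lung Cox5a turned to -0.0071 and Atp5l to -0.033. When only detected probes set the shift they were 0 and 1, 5 and 4, and 4 and 1. The cause was not tested. With no filter on detection, more probes shared the adjustment, and 0 lung members were lower and 7 differences were above 0. In BALF cells 16 members were then higher and 6 lower, and 21 of the 31 calls were kept. BALF members higher and lower were 19 and 7 with no background correction, and 20 and 6 with eBayes set to trend and robust. Each of these 2 settings kept 26 of the 31 calls. Lung members lower were 2 with the authors' processed values and with array weights, where the brighter Ndufb4 probe was added. With the replicate block they were 2 in the lung, where Ndufa1 was added, the calls higher were 2, and the block gave 19 and 8 in BALF cells and 10 and 4 for the difference. Over leaving out each array in turn, calls higher and lower ran over 2 to 5 and 0 to 2 in the lung, 15 to 24 and 6 to 9 in BALF cells, and 7 to 12 and 4 to 4 for the difference; the lowest BALF count came without silica replicate 3. In the lung the calls lower were 0 without silica replicate 1, 2 or 3 or air replicate 2 or 5. Without silica replicate 5, Cox8h lost its call and Ndufa1 was called (-0.17, adjusted p = 0.0387). Without air replicate 1 the calls were 5 and 2. For the difference, 7 were above 0 without air replicate 2. The same-numbered silica and air rats are separate animals whose deviations from the group means correlated at -0.493 to 0.388, so the numbers were not taken as pairs. Blood had 0 members called under each alternative, also without its 3 arrays of lowest signal. Of 1682 values of named members under alternatives, 1519 kept direction and call or moved within the error, 89 lost the call, 14 gained it, 58 uncalled values moved by more and 2 reversed. Low signal over background limits what can be said of Cox6b, Cox6c and Ndufs6.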
